A study of Mus musculus domesticus and Mus musculus domesticus x Mus musculus castaneus and Mus musculus castaneus with 10 samples.

Results

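Collagen genes were surveyed in RNA from mouse pluripotent stem cells homozygous for the CAST/EiJ genome (hereafter CAST), the inbred representative of Mus musculus castaneus. A gene was taken as a collagen when the annotation called it protein-coding and its symbol was Col, a number, the letter a and a number. Of the 26808 genes in the deposited count table, 44 met this rule, and all 44 symbols of this form in the GENCODE annotation of GRCm38 were in the table. The measurement was poly(A)-selected RNA-seq of 2 libraries of 1 group, CAST replicates 1 and 2. The cells were induced pluripotent stem cells made from embryonic fibroblasts of CAST mice with retroviral Oct4, Sox2 and Klf4. They were grown undifferentiated with LIF and serum on irradiated mouse embryonic fibroblasts, and the feeders were depleted before RNA was extracted. Fibroblasts are a rich source of collagen mRNA, so the origin of the cells and any feeders that remained limit what a collagen level says about the stem cells. No source used here says whether the libraries came from separate cultures or separate lines. The series also lists 129 stem cells (4 samples) and the hybrid 129Cas (4 samples), which were not analysed here. Another 7 value columns of the table carry no name of a listed sample and were left unused.

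With 1 group of 2 libraries the design holds no comparison between conditions and no test was run. Each value is given for each library, and a ratio of replicate 1 to replicate 2 is the spread between libraries of 1 group. The libraries held 14460393 and 13728098 counts. At these depths 3 counts, the limit that a count of 0 allows, equal 0.207 counts per 1000000 counts (CPM) in replicate 1 and 0.219 CPM in replicate 2. Intervals are 95% intervals computed from the counts, so they cover counting error only and leave out other spread between libraries. Reads amplified by PCR without molecular identifiers are not independent molecules, so the intervals may be too narrow even for counting error. The labels give each library its own batch entry, so a batch effect and a replicate effect cannot be told apart here. The pluripotency genes of the labelled cell type were present in both libraries, with Pou5f1 at 547 and 731 CPM, Esrrb at 903 and 556 CPM and Utf1 at 832 and 804 CPM. Pou5f1 (which encodes Oct4), Sox2 and Klf4 were also introduced by retrovirus, and reads of those copies were not told apart from reads of the cells' own genes.

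Collagens are the main structural proteins of the extracellular matrix. Each collagen molecule is a trimer of α chains that wind around each other, and the helix requires glycine at regular steps, so that its chains read as repeated Gly-X-Y triplets, in which X and Y are often proline and hydroxyproline. Fibrillar collagens (types I, II, III, V, XI, XXIV and XXVII) have a long helix with few or no breaks and pack side by side into fibrils, whereas type IV has many breaks in its helix and forms the flexible network of basement membranes. The remaining types include the beaded filaments of type VI, the networks of types VIII and X, the anchoring fibrils of type VII, the FACITs (fibril-associated collagens with interrupted triple helices), the transmembrane collagens and the multiplexins. Fibroblasts are known for making fibrils of types I, III and V, and cells of the early embryo and stem cells are known to make type IV beside laminin.

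The coding sequence shows what separates the classes, and short stretches of the chains on which the results turn are printed for that reason. Sequences are from the GENCODE transcripts of GRCm38 (the C57BL/6J reference, not the CAST genome), run 5′ to 3′ on the coding strand, and have the glycine codons that open each triplet in capitals. For 6 fibrillar chains the first exon of 54 bases inside the longest unbroken run of triplets is shown, each 6 triplets long.
Col1a1: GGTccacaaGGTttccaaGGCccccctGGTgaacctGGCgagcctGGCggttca
Col1a2: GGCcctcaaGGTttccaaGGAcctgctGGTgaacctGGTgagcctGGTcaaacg
Col3a1: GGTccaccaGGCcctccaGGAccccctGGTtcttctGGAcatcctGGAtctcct
Col5a1: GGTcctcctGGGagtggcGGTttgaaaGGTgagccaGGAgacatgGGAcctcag
Col5a2: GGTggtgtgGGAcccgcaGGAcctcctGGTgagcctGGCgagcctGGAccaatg
Col2a1: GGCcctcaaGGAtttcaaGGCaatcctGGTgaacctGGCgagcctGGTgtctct
These exons lie at chr11:94939904-94939957 on the plus strand (Col1a1, exon 8), chr6:4515481-4515534 plus (Col1a2, exon 8), chr1:45325360-45325413 plus (Col3a1, exon 6), chr2:27965251-27965304 plus (Col5a1, exon 15), chr1:45422386-45422439 minus (Col5a2, exon 10) and chr15:97996489-97996542 minus (Col2a1, exon 10). Every one of them began with a glycine codon and ended with a whole triplet. For 3 type IV chains and for Col18a1, a short break in the triplets is shown with 3 triplets on each side. It is the first break of at most 12 codons that lies within 1 exon together with those triplets, so earlier short breaks can exist.
Col4a1: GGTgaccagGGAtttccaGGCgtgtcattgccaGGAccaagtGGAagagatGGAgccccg
Col4a2: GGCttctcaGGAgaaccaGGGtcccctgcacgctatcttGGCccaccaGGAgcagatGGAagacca
Col4a5: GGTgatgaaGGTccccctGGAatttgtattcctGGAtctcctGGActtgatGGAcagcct
Col18a1: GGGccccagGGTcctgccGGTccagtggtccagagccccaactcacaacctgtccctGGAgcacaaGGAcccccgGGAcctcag
The long lower-case stretch in each of these lines holds the X and Y codons of a triplet and then the break. The break was 2 codons long in Col4a1 (exon 21, chr8:11235141-11235200, minus strand) and in Col4a5 (exon 21, chrX:141599738-141599797, plus). It was 4 codons long in Col4a2 (exon 20, chr8:11415964-11416029, plus) and 10 codons long in Col18a1 (exon 7, chr10:77080724-77080807, minus).

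Over whole chains the same contrast held. When a run was defined as at least 5 triplets in a row, the longest run of the 11 fibrillar chains was 216 to 344 triplets (median 338) with 1 or 2 breaks between runs. The shortest were those of types XXIV and XXVII, with 216 triplets in Col24a1 and 217 in Col27a1, and each of these chains had 2 breaks. The 6 type IV chains had longest runs of 39 to 66 triplets (median 43.5) and 15 to 23 breaks. Col18a1, a multiplexin, had a longest run of 30 triplets and 12 breaks, and Col12a1, a FACIT, had one of 32 triplets and 3 breaks near the end of a long chain. Of 510 fibrillar exons that lie inside runs, 302 (59.2%) were 54 bases long, against 10 of 120 (8.33%) for type IV and 99 of 182 (54.4%) for the FACITs. Over 199791 coding exons of 22028 protein-coding genes, 0.673% had that length.

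**Figure D1:**
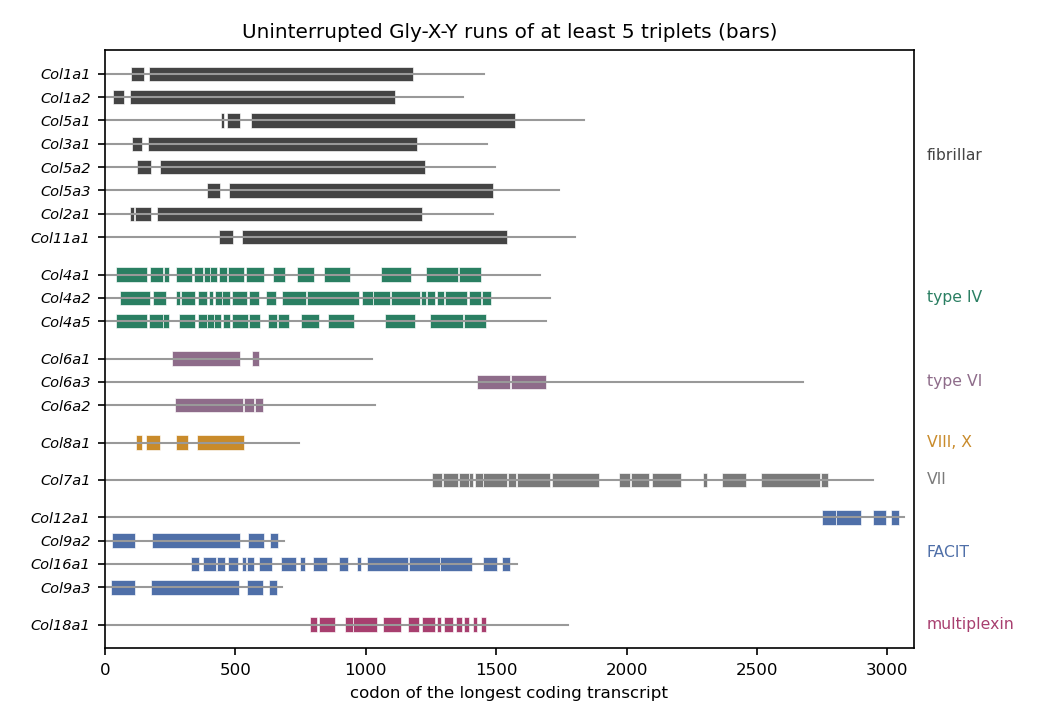
Position of unbroken Gly-X-Y runs in the collagen chains with a mean of at least 5 CPM. The x axis is the codon of the longest coding transcript, grey lines are whole coding sequences and bars are runs of at least 5 triplets; fibrillar chains hold 1 long bar (338 triplets in Col1a1), and Col4a1, Col4a2 and Col4a5 hold many short ones.

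Collagen mRNA made up 0.440% (Wilson interval 0.437 to 0.444%) of all counts in replicate 1 and 0.206% (0.204 to 0.209%) in replicate 2, a mean of 0.323% ± 0.165 (SD, n = 2). The sum of collagen CPM was thus 4404 and 2064, and it was 2.05-fold higher in replicate 1 (2.02 to 2.08) after TMM scaling, which sets the libraries to effective sizes that the bulk of genes share. Of the 44 members, 35 were above 3 counts in both libraries and 8 were at or under 3 counts in both. Col26a1 passed in 1 library only, with 3 and 17 counts. Col19a1 and Col28a1 had no count in either library. The 21 members with a mean of at least 5 CPM held 4384 and 2042 of the summed CPM.

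**Figure D2:**
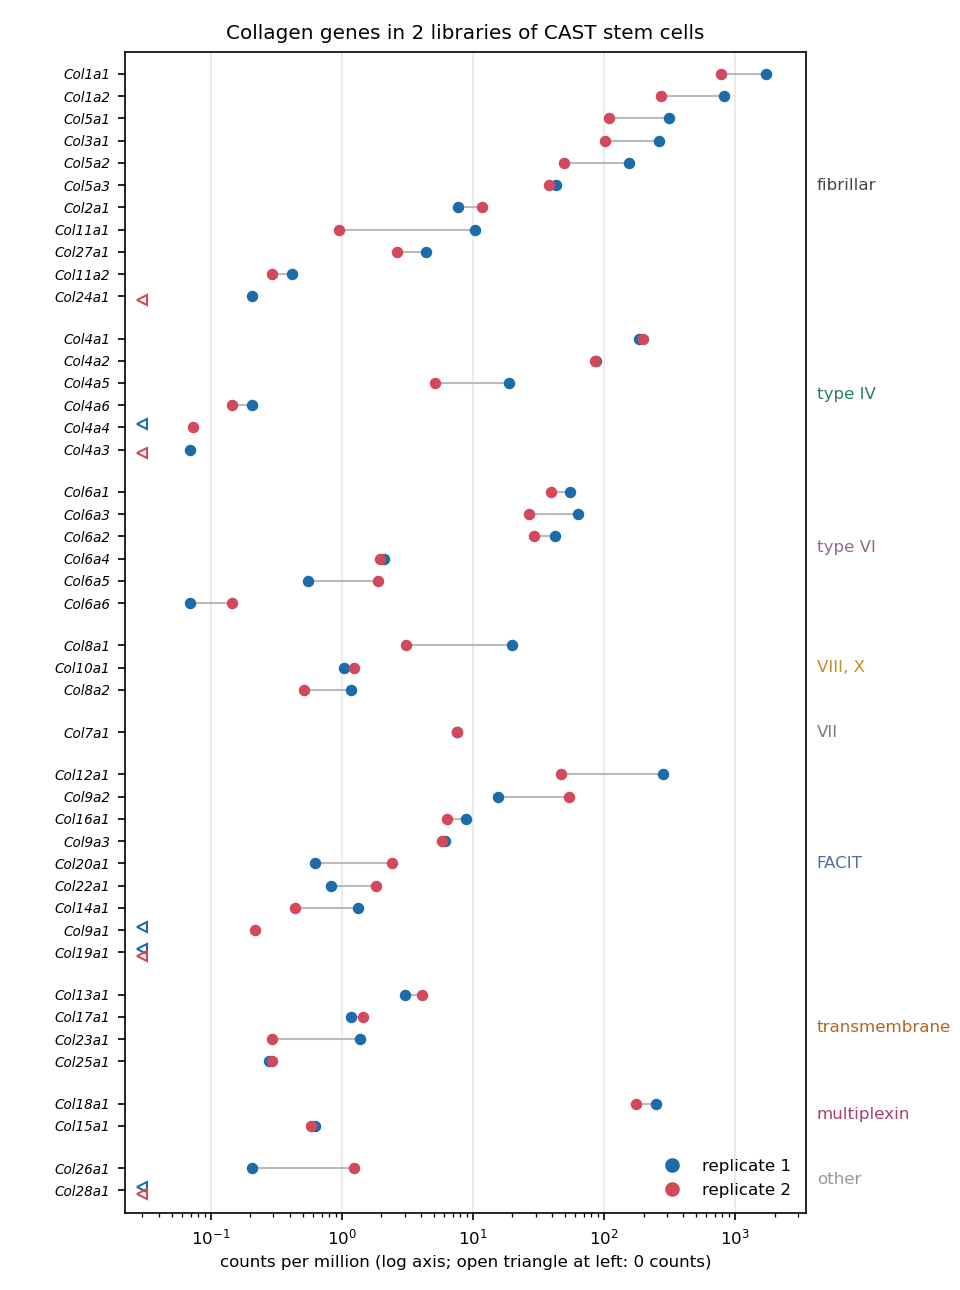
Level of all 44 collagen genes in both CAST libraries. The x axis is CPM on a log axis, each dot is 1 library, a grey line joins the libraries of a gene and an open triangle marks a count of 0; the libraries lie apart for most fibrillar genes and for Col12a1, and nearly coincide for Col4a1, Col4a2 and Col7a1.

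Fibrillar genes took most of the collagen counts, and their share was not the same in the libraries. They held 0.335% of all counts in replicate 1 and 0.136% in replicate 2, and 76.0% (75.7 to 76.4%) and 66.1% (65.5 to 66.6%) of the collagen counts, a mean of 71.1% ± 7.03 (SD, n = 2). Type IV genes held 0.0291% and 0.0288% of all counts, so their amount was nearly equal in the libraries. Against the smaller collagen total of replicate 2 this gave type IV 6.61% (6.42 to 6.81%) of collagen counts in replicate 1 and 13.9% (13.5 to 14.4%) in replicate 2. All other types together held 17.4% and 19.97%. Counting per kilobase of exon, so that long transcripts do not weigh more, left this order, with fibrillar shares of 76.1% and 62.2% and type IV shares of 7.43% and 14.2%.

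**Figure D3:**
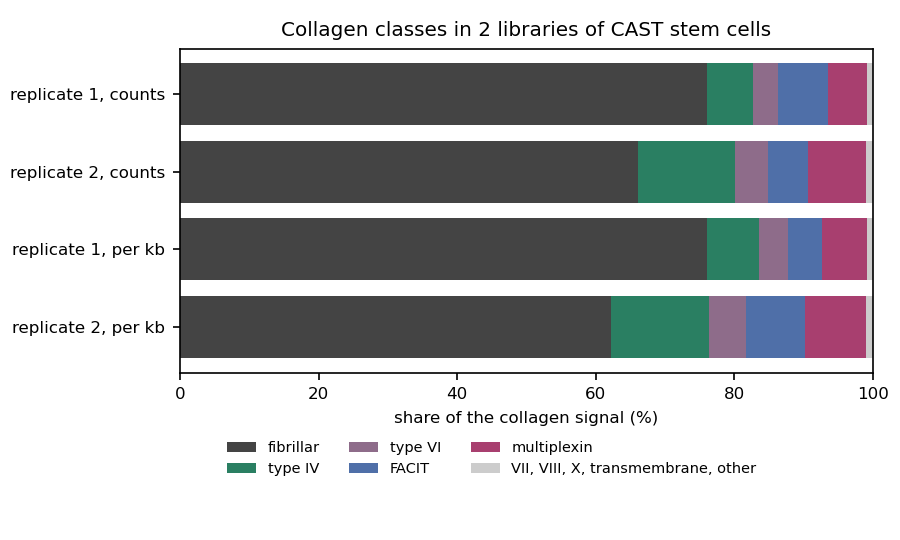
Make-up of the collagen signal in both CAST libraries. The x axis is the share of the collagen signal in percent, the upper bars use counts and the lower bars counts per kilobase of exon; the fibrillar bar is the longest in each row and the type IV bar is wider in replicate 2.

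Of the 35 members that reached 10 counts over the pair of libraries, 11 were at least 2-fold higher in replicate 1, where 4.98% of all 13824 genes past this limit were, and 4 were at least 2-fold higher in replicate 2, where 4.13% of all genes were. The other 20 lay within 2-fold, and 9 members with fewer counts have no ratio. The log2 ratio, replicate 1 over replicate 2, had a median of 0.39 over these members (range -1.82 to 2.86) and of 0.00 over all genes, of which 95% lay between -1.23 and 1.26. These ratios use a pseudocount of 0.5 CPM, which draws those of low genes toward 0. Of the 4 members higher in replicate 2, only Col9a2 stayed beyond 2-fold with a pseudocount of 2 CPM, because Col20a1, Col6a5 and Col26a1 (the first and the last named here after their values were seen) had at most 33 counts in a library.

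**Figure D4:**
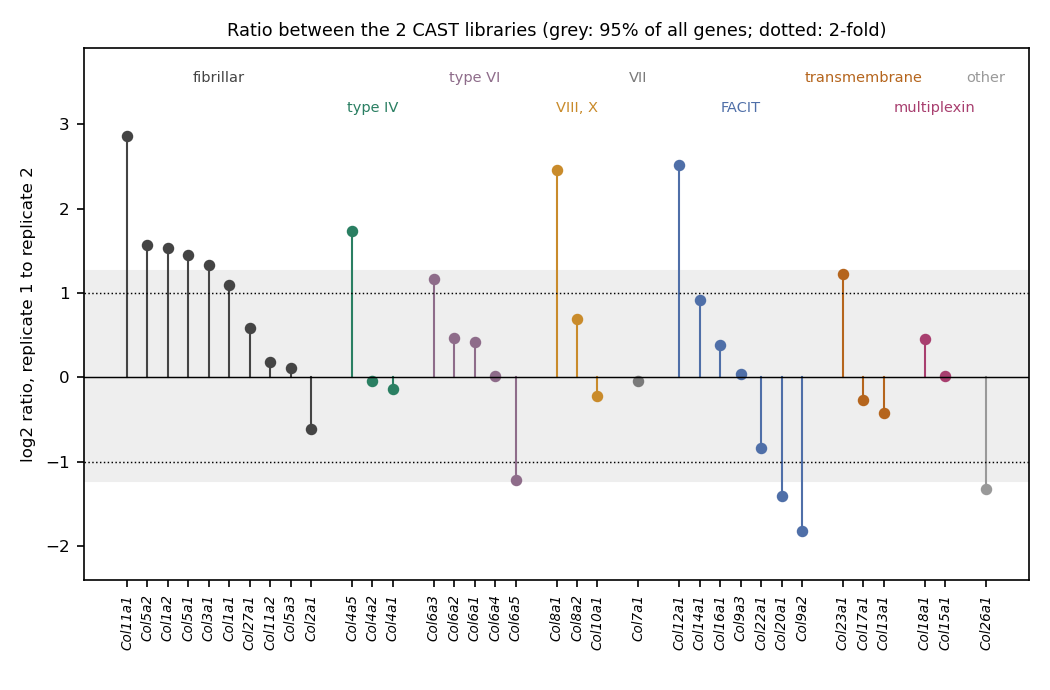
Ratio between the CAST libraries for the 35 collagen genes with 10 or more counts. The y axis is the log2 ratio of replicate 1 to replicate 2, colours are classes, the grey band holds 95% of all 13824 genes and dotted lines mark 2-fold; 6 of 10 fibrillar genes stand above the upper dotted line and none below the lower one.

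Among the fibrillar genes, 6 of 10 were at least 2-fold higher in replicate 1 and none in replicate 2, where 4.98% and 4.13% of all genes were. Their median log2 ratio was 1.21. Col1a1 (ENSMUSG00000001506, chr11:94936224-94953042, plus strand), which encodes the α1 chain of type I collagen, had 24965 counts (1726 CPM) in replicate 1 and 10672 counts (777 CPM) in replicate 2. It ranked 22nd and 140th of all genes by CPM and was 2.13-fold higher in replicate 1 (2.08 to 2.18). Col1a2 (ENSMUSG00000029661, chr6:4504814-4541544, plus), the α2 chain, was at 825 and 273 CPM, 2.91-fold higher in replicate 1 (2.80 to 3.01). Type I collagen is the main fibril of skin, bone and tendon, and its pair of genes took 57.9% and 50.9% of all collagen counts.

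Types III and V followed the same direction. Col3a1 (chr1:45311538-45349706, plus), whose homotrimer forms fine fibrils beside type I, was at 265 and 101 CPM, 2.52-fold higher in replicate 1 (2.37 to 2.68). Col5a1, the chain of type V that starts fibril assembly, was at 312 and 109 CPM, 2.73-fold higher (2.58 to 2.90). Col5a2, its partner, was at 154 and 49.7 CPM, 2.98-fold higher (2.73 to 3.25). Each of these chains was thus lower in replicate 2 than in replicate 1 by a fold beyond counting error. Col3a1 and Col5a2 are neighbours on chromosome 1, on opposite strands with 24614 bases between the genes.

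Not all fibrillar genes shared this spread. Col5a3, a further chain of type V, was at 43.1 and 38.3 CPM, a 1.08-fold difference whose interval (0.959 to 1.21) includes no difference. Col2a1, the fibril of cartilage, was at 7.75 and 11.7 CPM, 1.57-fold higher in replicate 2. Col11a1, a type XI chain that joins either cartilage or type V fibrils, had 150 counts in replicate 1 and 13 in replicate 2 (10.4 and 0.947 CPM) and was 10.5-fold higher in replicate 1 (5.97 to 20.2), the widest ratio among the 35 members at the pseudocount of 0.5 CPM but not at 2 CPM, where Col12a1 and Col8a1 exceeded it. Its partner Col11a2 had 6 and 4 counts. The other fibrillar members, types XXIV and XXVII, had 0 to 63 counts in a library.

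Type IV was divided between a pair of genes with near equal levels in both libraries, 1 gene that was not, and 3 genes at the detection limit. Col4a1 (ENSMUSG00000031502, chr8:11198423-11312826, minus strand), which encodes the α1 chain of the common basement membrane network, was at 186 and 197 CPM (mean 191 ± 7.74, SD, n = 2). Col4a2 (ENSMUSG00000031503, chr8:11312805-11449287, plus), the α2 chain of the same trimer, was at 86.2 and 85.5 CPM (85.8 ± 0.458). The fold of replicate 1 to replicate 2 was 0.907 (0.859 to 0.957) for Col4a1 and 0.967 (0.892 to 1.05) for Col4a2. The log2 ratio of Col4a2 was -0.05 and turned to 0.01 when library totals replaced TMM, so no direction is given for it. The genes sit head to head, with start sites 21 bases apart on opposite strands and transcripts that overlap by 22 bases.

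Col4a5, which serves in the network of kidney and other specialised basement membranes, had 272 and 70 counts (18.8 and 5.10 CPM), 3.54-fold higher in replicate 1 (2.71 to 4.67). Its head-to-head partner Col4a6, 1309 bases away on chromosome X, had 3 and 2 counts. Col4a3 and Col4a4, which trimerise with Col4a5 in the kidney and whose start sites lie 72 bases apart on chromosome 1, had 1 and 0, and 0 and 1 counts. The summed type IV level was 291 and 288 CPM, a fold of 0.971 (0.930 to 1.01), and the median log2 ratio over the 3 genes with enough counts was -0.05.

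Type VI collagen makes beaded filaments next to basement membranes, from an α1, an α2 and a longer chain. Col6a1 was at 54.9 and 39.3 CPM, 1.34-fold higher in replicate 1 (1.20 to 1.50), and Col6a2 at 42.2 and 29.1 CPM, 1.39-fold higher (1.22 to 1.58). Col6a3, the usual longer chain, was at 63.1 and 26.8 CPM, 2.26-fold higher (2.00 to 2.56). All 3 were lower in replicate 2, and Col6a3 by the largest fold of them. The alternatives to Col6a3 were far lower, with 30 and 27 counts for Col6a4, 8 and 26 for Col6a5 and 1 and 2 for Col6a6.

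The FACITs held the largest ratio in each direction among the members with a mean of at least 20 CPM. Col12a1 (ENSMUSG00000032332, chr9:79598991-79718831, minus), a chain that coats type I fibrils and is made where tissue bears load, had 4099 and 647 counts, 283 and 47.1 CPM, and was 5.77-fold higher in replicate 1 (5.31 to 6.28). It took 6.44% of collagen counts in replicate 1 and 2.28% in replicate 2. Col9a2 (ENSMUSG00000028626, chr4:121039385-121055322, plus), a chain of the type IX collagen that coats cartilage fibrils, was the reverse, with 226 and 745 counts (15.6 and 54.3 CPM), 3.62-fold higher in replicate 2. Its partner Col9a3 did not follow, at 6.15 and 5.75 CPM, and Col9a1, the remaining chain of that trimer, had 0 and 3 counts. Col9a3 overlaps Tcfl5 on the other strand (865 and 690 counts), and without a known strand setting reads of the 2 cannot be told apart where they overlap. Col16a1 was at 8.78 and 6.34 CPM, and the other FACITs had 0 to 33 counts in a library.

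Col18a1 (ENSMUSG00000001435, chr10:77052178-77166548, minus), the multiplexin of basement membranes from whose end endostatin is cut, was at 248 and 174 CPM, 1.37-fold higher in replicate 1 (1.30 to 1.44). Col15a1, the other multiplexin, had 9 and 8 counts. Col8a1, a short-chain collagen of vessel walls and of the basement membrane under the cornea's endothelium, was at 19.8 and 3.06 CPM, 6.21-fold higher in replicate 1 (4.48 to 8.80), and its partner Col8a2 had 17 and 7 counts. Col7a1, which anchors the epidermis to the dermis, was at 7.61 and 7.58 CPM. Col10a1, of hypertrophic cartilage, had 15 and 17 counts, which cannot be told apart from reads of Nt5dc1, an overlapping gene on the other strand with 604 and 553 counts. Col17a1, of hemidesmosomes, had 17 and 20 counts, and the other transmembrane collagens had 4 to 56.

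Levels of partner chains were compared per kilobase, within each library. Per kilobase of exon Col1a1 stood at 3.96 times Col1a2 in replicate 1 and 5.40 times in replicate 2, a mean of 4.68 ± 1.02 (SD, n = 2). This value depended on which length was used, since the annotated exons of Col1a2 span 12426 bases and its longest transcript 5348, and with longest transcripts the mean was 2.23. Col4a1 stood at 1.91 and 2.04 times Col4a2 (mean 1.98 ± 0.0905, and 2.18 with longest transcripts). Both type I and type IV trimers are built with more α1 than α2 chains. Col5a1 stood at 2.28 and 2.49 times Col5a2 (2.39 ± 0.145, and 1.67 with longest transcripts).

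For other pairs the ratio itself changed between the libraries. Col5a3 stood at 0.172 times Col5a1 in replicate 1 and 0.436 times in replicate 2, with intervals that do not overlap (0.158 to 0.188 and 0.394 to 0.482). Col6a1 stood at 2.47 and 2.57 times Col6a2 (mean 2.52, and 1.59 with longest transcripts), but at 2.38 and 4.01 times Col6a3. Col9a2 stood at 3.16 and 11.7 times Col9a3. Col4a5, which joins other trimers, stood at 0.112 and 0.0288 times Col4a1. Across types, Col11a1 stood at 0.0222 and 0.00576 times Col5a1 (0.0365 and 0.00948 with longest transcripts). Col3a1 stood at 0.102 and 0.0868 times Col1a1 (0.163 and 0.138 with longest transcripts). The chains of types IV (α1 and α2), V (α1 and α2) and VI (α1 and α2) thus kept a near constant ratio to each other, while Col1a2, Col5a3, Col6a3 and Col9a2 shifted against their partners, and Col4a5, Col11a1 and Col3a1 against the chain each was set beside, by more than counting error.

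A list of fibroblast markers without collagens leaned to replicate 1, with 11 of the genes that have a ratio higher there and 3 higher in replicate 2. Of its 16 genes none was at 0 counts in both libraries, 14 had at least 10 counts in total, and 5 of these were at least 2-fold higher in replicate 1 and none in replicate 2, where 4.98% and 4.13% of all genes were (median log2 ratio 0.48, against 1.21 for the fibrillar genes). The summed level was 3614 and 2862 CPM, most of it Fn1 and Sparc, which are not particular to fibroblasts. Without that pair, a removal that was not planned, the sum was 457 CPM in replicate 1 and 154 CPM in replicate 2. The widest differences were those of Acta2 (101 and 4.30 CPM), Fbn1 (80.9 and 16.3 CPM) and Tagln (89.1 and 19.9 CPM). Thy1 (29.7 and 11.3 CPM), Postn (38.1 and 19.2 CPM) and Lgals1 (85.7 and 57.8 CPM) were also higher in replicate 1, as was Prrx1 (10.7 and 3.57 CPM). Other markers, named like Prrx1 after their values were seen, lay within 2-fold, with log2 ratios of 0.22 for Pdgfra, -0.15 for Pdgfrb, -0.03 for Dcn, 0.46 for Lum and -0.42 for Twist1, all below 10 CPM. The part of fibroblast RNA in the collagen ratios was not tested, and in bulk RNA fewer cells of a type and less RNA per cell cannot be told apart.

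Markers of other cell types stood as follows beside the collagens named for them, with 4.98% of all genes at least 2-fold higher in replicate 1 and 4.13% in replicate 2. Of 9 genes of primitive and parietal endoderm, an early lineage known for type IV collagen, 1 of 8 with enough counts was at least 2-fold higher in replicate 1 and 2 in replicate 2, and the sum was 97.6 and 58.6 CPM, of which Dab2 gave 85.8 and 34.1. In number, 6 of the 8 were higher in replicate 2 (median log2 ratio -0.40), Gata6 the most (0.692 and 7.21 CPM, named after its values were seen). Without Dab2, a removal that was not planned, the sum was 11.8 and 24.5 CPM. Of 4 cartilage markers measured beside Col2a1 and Col9a2, 1 was at least 2-fold higher in replicate 2 (Matn1, 14.0 and 28.3 CPM), and the sum was 29.9 and 45.7 CPM. Of 7 neuron markers, Chat and Syt1 were at 0 counts in both libraries and the sum was 90.9 and 49.6 CPM, of which Tubb3 gave 81.2 and 44.2. Of 10 pluripotency genes, Klf4 (also introduced by retrovirus) and Klf2 were at least 2-fold higher in replicate 1 (log2 ratio 1.12 for each) and none in replicate 2. The sum of the 10 was 5287 and 4151 CPM (median log2 ratio 0.31). The part of these cell types in the collagen values was not tested.

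The genes that modify, secrete and crosslink collagen did not all go one way. Of 28 such genes, 6 were at least 2-fold higher in replicate 1 (4.98% of all genes) and 3 in replicate 2 (4.13%), the median log2 ratio was 0.37, and the sum was 2102 and 2277 CPM. Higher in replicate 2 were P4ha1 (94.1 and 311 CPM) and P4ha2 (21.02 and 59.5 CPM), catalytic subunits of the prolyl hydroxylase that lets the helix hold at body temperature, and Plod2 (88.7 and 192 CPM), a lysyl hydroxylase of the crosslinking sites. P4ha3, a further catalytic subunit (named after its values were seen), was the reverse at 5.39 and 2.04 CPM. P4hb, the non-catalytic subunit, was at 557 and 685 CPM. Lox, which starts the crosslinks of collagen, went with the fibrillar genes at 196 and 65.8 CPM. P4ha1, P4ha2 and Plod2 were thus higher in the library with less collagen mRNA.

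Of 14 partners of type IV in the basement membrane, 2 were at least 2-fold higher in replicate 1 (4.98% of all genes) and none in replicate 2 (4.13%), and the median log2 ratio was 0.51. The nidogen Nid1, which links laminin to type IV, was at 483 and 471 CPM (log2 ratio -0.02 after TMM scaling, so no direction is given) and the laminin β1 chain Lamb1 at 131 and 143 CPM (-0.19). Lamc1, the γ1 chain that most laminins share, was at 760 and 445 CPM, and the proteoglycans Hspg2 and Agrn were at 538 and 394 and at 799 and 588 CPM. Of 10 receptors for collagen, 7 had enough counts, of which 2 were at least 2-fold higher in replicate 1 and 1 in replicate 2, beside the same shares of all genes. Itgb1, the β chain of the collagen-binding integrins, was at 296 and 281 CPM. Of 7 genes of collagen breakdown 5 had enough counts, none of which was at least 2-fold higher in replicate 1 and 1 in replicate 2 (Mmp9, 0.277 and 1.53 CPM, named after its values were seen). Their median log2 ratio was 0.76, with the membrane collagenase Mmp14 at 74.8 and 38.5 CPM and the gelatinase Mmp2 at 40.1 and 22.5 CPM.

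When the trend of the ratio with GC content and length over all genes was removed, a correction chosen after seeing the data, Col1a1 (log2 ratio 1.09 to 0.92) and Col6a3 (1.16 to 0.81) no longer stood 2-fold apart, and 5 of 10 fibrillar genes did, all higher in replicate 1, where 4.43% of all genes were in that setting. Col5a1, Col5a2, Col1a2, Col3a1, Col11a1, Col12a1, Col4a5 and Col8a1 stayed at least 2-fold higher in replicate 1 in that setting.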

How the data were processed

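Poly(A) RNA-seq libraries of CAST induced pluripotent stem cells were used (n = 2). The authors deposited read counts per GRCm38 Ensembl gene, without normalization. Their methods name STAR with GeneCounts (version not stated), the CAST/EiJ genome and removal of multi-locus reads, whereas the submitters' processing notes name TopHat2 2.1.1, SAMtools, HTSeq and GRCm38, and the 2 were not reconciled. The strand setting is not given in the sources used here, so overlapping genes may share reads. The labels and the methods name different RNA kits. Another 7 value columns carry no listed sample's name and were left unused.

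Levels are CPM over library totals (14460393 and 13728098 counts). Counts of 0 allow 0.207 and 0.219 CPM, so that depth limits only the low members. Ratios used TMM effective sizes (edgeR 4.0.16 under R 4.3.3) and added 0.5 CPM, for genes with 10 or more counts over the libraries. Shares have Wilson intervals and ratios of counts exact binomial intervals (scipy 1.17.1). Lengths, positions and sequences were taken from GENCODE M21. Scripts were tested on simulated data. Alternatives were library totals, DESeq2 1.42.0 size factors, edgeR's filterByExpr, no filter, pseudocounts of 0.1 and 2 CPM, other lengths and denominators, and 1 library alone. Other steps ran in Python 3.11.15 (pandas 2.3.3, numpy 2.4.6, statsmodels 0.14.6, matplotlib 3.10.9).

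Members, classes and lists were chosen with earlier results of these data known. Values were given for members with a mean of at least 5 CPM, partner chains of types I, IV, V, VI, VIII, IX and XI, and Col2a1, Col3a1, Col7a1, Col10a1, Col15a1, Col17a1 and Col18a1. Genes of other lists were named from a mean of 20 CPM, apart from Chat and Syt1 and those marked as named after their values were seen. Serpinh1, Lama5, Nanog, Dppa5a and Sox9, which the lists hold, were not analysed here.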

Additional observations from a re-analysis of the deposited data

How the results depend on the processing

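Leaving out each library in turn gave collagen shares of 0.206 to 0.440% of all counts, fibrillar shares of 66.1 to 76.0%, type IV shares of 6.61 to 13.9%, shares of all other types of 17.4 to 19.97%, and 35 to 36 members above 3 counts. Chain ratios then ranged from 3.96 to 5.40 for Col1a1 to Col1a2, 1.91 to 2.04 for Col4a1 to Col4a2, 2.28 to 2.49 for Col5a1 to Col5a2, 2.47 to 2.57 for Col6a1 to Col6a2 and 3.16 to 11.7 for Col9a2 to Col9a3, and no ratio between libraries could be formed. Without Col1a1 the mean shares were 53.1% fibrillar, 16.6% type IV and 30.3% other. The mean chain ratios of types I, IV, V and VI, in that order, were 2.23, 2.18, 1.67 and 1.59 with longest transcripts and 2.47, 2.23, 2.11 and 1.33 without length. The median log2 ratios of fibrillar, type IV and other genes were 1.27, 0.0108 and 0.0756 with library totals. With at least 1 count in total the fibrillar and type IV medians were 1.09 and 0.0343, with filterByExpr the fibrillar median was 1.33, and with the GC content and length trend removed (chosen after seeing the data) the 3 medians were 1.03, -0.22 and -0.0353. The type IV and other medians thus had no stable sign, and the cause was not tested. The count of members at least 2-fold apart was 15 and ran from 11 (filterByExpr and a pseudocount of 2 CPM, with 1 higher in replicate 2 in place of 4) to 18 (a pseudocount of 0.1 CPM). The share of all genes at least 2-fold higher in replicate 1 and in replicate 2 moved with it, from 2.16% and 1.74% at a pseudocount of 2 CPM and 3.85% and 3.12% with filterByExpr to 6.92% and 6.18% at 0.1 CPM. Of the 21 members with a mean of at least 5 CPM, Col1a1 and Col6a3 changed their side of 2-fold, both with the GC content and length trend removed, and the 2 filters leave a single gene's ratio as it was by construction. At 1 CPM, or above 10 counts, in both libraries, 25 and 27 members passed in place of 35. No paired analysis was possible because the libraries analysed form a single group. With 2 libraries and no test, no ratio has a replicate check.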
